A study of Mus musculus with 6 samples.

Results

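The genes described here are the EGF receptor and 7 ligands of its receptor family: Egfr, Ereg, Areg, Hbegf, Tgfa, Btc, Epgn and Nrg1. They were taken by gene symbol from a table of 25239 rows, and all 8 passed the low-count filter that left 14065 genes for testing. The 8 genes were chosen with their measured difference between senescent and quiescent libraries already known, so their values and fold changes are given as a description and no test is attached to them. Areg and Epgn passed the filter only through their senescent libraries.

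RNA was sequenced from mouse primary pulmonary fibroblasts, the matrix-producing cells of the lung, in 3 quiescent and 3 senescent libraries. Senescence was induced with Nutlin 3a, a small molecule that frees p53 from Mdm2, applied for 48 hours after 16 hours of the Cdk1 inhibitor RO3306. BI-2536, an inhibitor of Plk1, was then used at 100 nM to remove cells that still divided, and 12 days is the total given. The labels carry the same treatment text for both groups, and do not say how quiescence was brought about; strain, sex and age are not named either. All cells grew with 10% serum at 5% oxygen. No transgene or genetic change is named in the labels.

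The EGF receptor is a tyrosine kinase at the cell surface that pairs with itself or with its relatives Erbb2, Erbb3 and Erbb4 once a ligand binds. Its ligands are made as membrane-anchored precursors, and proteases of the ADAM family cut them free to act on the same or neighbouring cells. The occupied receptor signals through RAS and ERK and through PI3K and AKT, is removed by endocytosis, and is restrained by feedback inhibitors. In lung this pathway is known for epithelial repair, and Nrg1 is known for signalling between mesenchyme and epithelium.

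Libraries held 93736593 to 109706025 counts, of which 79.8% to 82.8% lay in 3 rows rich in ribosomal reads. Levels are CPM, the usual depth-normalised count, computed on that whole total after TMM scaling, so they look low. Of 10 fibroblast marker genes, all were detected, 7 were called lower and 2 higher in senescent libraries, and their summed level was 4243 to 4344 CPM in quiescent and 2373 to 2886 CPM in senescent libraries. Among all tested genes, edgeR called 74.5% at an adjusted p under 0.05, 36.7% higher and 37.8% lower in senescent libraries. The third senescent library stood apart from the other 2: its chi-square per degree of freedom against them was 15.9 and 20.4, where all other replicate pairs had 2.29 to 4.31. In bulk RNA, fewer cells of a type and less RNA per cell cannot be told apart.

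The ligand genes Ereg, Areg, Btc and Epgn lie together on mouse chromosome 5, and promoter sequence was at hand for 3 of them and for Egfr and Tgfa, the members whose levels differed least between the groups. The sequences are shown because the neighbouring ligands Areg, Btc and Epgn were all higher in senescent libraries while Tgfa was not. Each is the RefSeq sequence on build GRCm38.p6, 5′ to 3′ on the gene's own strand, and ends at the base before the RefSeq start. The Epgn stretch is the exception: it has 197 bases in place of 250 because GENCODE annotates the bases nearest that start as exon. Capitals mark TATAAA (the TATA box) and TGACG on either strand (the core of the cAMP response element, read as CGTCA on the other strand).
Areg, chr5:91139349-91139598, plus strand: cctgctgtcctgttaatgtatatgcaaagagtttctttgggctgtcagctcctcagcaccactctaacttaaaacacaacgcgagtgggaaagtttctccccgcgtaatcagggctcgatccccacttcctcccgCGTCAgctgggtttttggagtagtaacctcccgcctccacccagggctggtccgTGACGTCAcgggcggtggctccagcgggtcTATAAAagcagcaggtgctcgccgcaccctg
Epgn, chr5:91027267-91027463, plus strand: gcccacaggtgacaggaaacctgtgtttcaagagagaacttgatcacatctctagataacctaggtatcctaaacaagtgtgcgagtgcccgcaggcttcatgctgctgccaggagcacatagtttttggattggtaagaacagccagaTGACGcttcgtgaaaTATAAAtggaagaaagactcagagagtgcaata
Btc, chr5:91402995-91403244, minus strand: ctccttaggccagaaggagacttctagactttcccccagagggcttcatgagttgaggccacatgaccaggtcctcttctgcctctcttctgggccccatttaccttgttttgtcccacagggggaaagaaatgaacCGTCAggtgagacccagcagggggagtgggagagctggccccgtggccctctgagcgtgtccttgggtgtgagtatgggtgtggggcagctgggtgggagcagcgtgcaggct
Egfr, chr11:16751953-16752202, plus strand: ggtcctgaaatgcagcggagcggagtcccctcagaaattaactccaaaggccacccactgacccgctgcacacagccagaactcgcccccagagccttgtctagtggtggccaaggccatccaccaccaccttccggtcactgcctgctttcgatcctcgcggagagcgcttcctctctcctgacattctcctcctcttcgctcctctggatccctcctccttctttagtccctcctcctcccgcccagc
Tgfa, chr6:86194972-86195221, plus strand: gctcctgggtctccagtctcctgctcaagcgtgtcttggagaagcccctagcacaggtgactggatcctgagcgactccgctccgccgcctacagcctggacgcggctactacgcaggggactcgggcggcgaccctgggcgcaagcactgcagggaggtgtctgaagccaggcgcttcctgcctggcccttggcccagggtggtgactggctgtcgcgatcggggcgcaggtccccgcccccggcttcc

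The Areg stretch held TGACG 3 times, and the pair whose first bases lie 61 and 58 bases before the start overlaps to read TGACGTCA. Its TATA box begins 31 bases before the start. The Epgn stretch held 1 TGACG at 48 and 1 TATAAA at 33 bases before the end of the printed sequence, the Btc stretch held 1 TGACG and no TATAAA, and the Egfr and Tgfa stretches held neither. Over 32851 promoter stretches of 250 bases, 17.8% held TGACG and 12.4% held TATAAA on either strand; in stretches of 197 bases the shares were 15.5% and 9.85%. TGANTCA, the AP-1 motif, was in none of the 5 sequences and in 6.75% of the 250-base stretches. GGGCGG, the GC box, was found 2 times in Tgfa, 1 time each in Egfr and Areg, and in 32.7% of the 250-base stretches. The Tgfa and Egfr stretches had the highest GC content of the 5 sequences, at 69.2% and 60.8%, against 45.7% in Epgn. These are matches of letters only. No sequence is shown for Ereg, Hbegf and Nrg1, which were also higher in senescent libraries, and Egfr was slightly higher. Any link between these motifs and the levels was not tested.

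Egfr itself (chr11:16752203-16918158 on GRCm38) was an abundant receptor transcript in both states. It measured 69.7, 69.4 and 69.2 CPM in the quiescent libraries and 75.3, 76.1 and 86.7 CPM in the senescent libraries. All senescent values lay above all quiescent values, with the third senescent library the highest. The means were 69.4 ± 0.232 and 79.4 ± 6.36 CPM (SD, n = 3 each), a log2 difference of 0.19 (SE 0.06). The direction for Egfr depended on scaling. With upper quartile factors the log2 difference was 0.10, and with library totals in place of TMM factors it was -0.10. Those scalings moved the median log2 difference of all tested genes from -0.02 to -0.12 and -0.32, so Egfr lay above the median gene under each of them.

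Ereg encodes epiregulin, a ligand that binds the EGF receptor and Erbb4 (chr5:91074622-91093646). Its level was 8.53, 10.4 and 9.66 CPM in quiescent libraries and 149, 145 and 215 CPM in senescent libraries. The groups were far apart, and the spread among senescent libraries came from the third, which was the highest. The senescent mean was 17.8 times the quiescent mean (169.7 ± 39.6 against 9.55 ± 0.963 CPM, SD, n = 3 each), a log2 difference of 4.15 (SE 0.19). In counts, Ereg went from 3170 over the quiescent libraries to 49992 over the senescent libraries, the largest count of any member in the senescent state.

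Areg encodes amphiregulin, a lower-affinity ligand linked to tissue repair (chr5:91139599-91148432). It was close to undetected in quiescent cells, with 3, 3 and 4 counts, and had 223, 192 and 413 counts in the senescent libraries. That equals 0.028, 0.025 and 0.038 CPM against 2.23, 2.15 and 4.01 CPM. No values overlapped, and the third senescent library was again the highest, at 1.83 times the mean of the other 2. The ratio of summed counts, scaled by library size, was 93.8 with a 95% counting interval of 50.7 to 196, and the fitted log2 difference was 6.48 (SE 0.47).

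Hbegf encodes heparin-binding EGF-like growth factor, which is held near cells by heparan sulfate (chr18:36504927-36515805). Its level was 0.480, 0.717 and 0.698 CPM in quiescent libraries and 23.1, 22.0 and 26.8 CPM in senescent libraries. Here the senescent libraries were close together and far above every quiescent library. The mean went from 0.632 ± 0.132 to 24.0 ± 2.53 CPM (SD, n = 3 each), a ratio of 38.0 and a log2 difference of 5.24 (SE 0.13).

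Btc encodes betacellulin, a ligand of the EGF receptor and Erbb4 (chr5:91357261-91402994). It measured 0.922, 1.16 and 1.05 CPM in quiescent libraries and 6.70, 6.37 and 7.93 CPM in senescent libraries. The groups did not overlap, and the senescent mean was 6.72 times the quiescent mean, with an SE of 0.11 around a log2 difference of 2.75. Epgn, which encodes epigen, was the least abundant member (chr5:91027464-91035215). It had 2 counts in each quiescent library and 13, 14 and 18 counts in the senescent libraries. The groups were apart, but the ratio of summed counts, 8.49, has a 95% counting interval of 3.61 to 24.4.

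Tgfa, encoding transforming growth factor alpha, was the exception among the ligands (chr6:86195223-86275719). It measured 0.922, 1.01 and 0.877 CPM in quiescent libraries and 0.811, 0.670 and 0.875 CPM in senescent libraries. All senescent values lay just below all quiescent values, the highest senescent and the lowest quiescent library differing in the third decimal. The log2 difference was -0.25 (SE 0.14), and with library totals as the scale it was -0.55.

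Nrg1 encodes neuregulin 1, which binds Erbb3 and Erbb4 and acts through pairs with Erbb2 (chr8:31814551-32884029). Its level was 9.85, 9.91 and 8.61 CPM in quiescent libraries and 27.7, 29.2 and 39.1 CPM in senescent libraries. Every senescent library lay above every quiescent one, and the third was the highest. The mean went from 9.46 ± 0.731 to 32.0 ± 6.21 CPM (SD, n = 3 each), a log2 difference of 1.76 (SE 0.14).

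**Figure D1:**
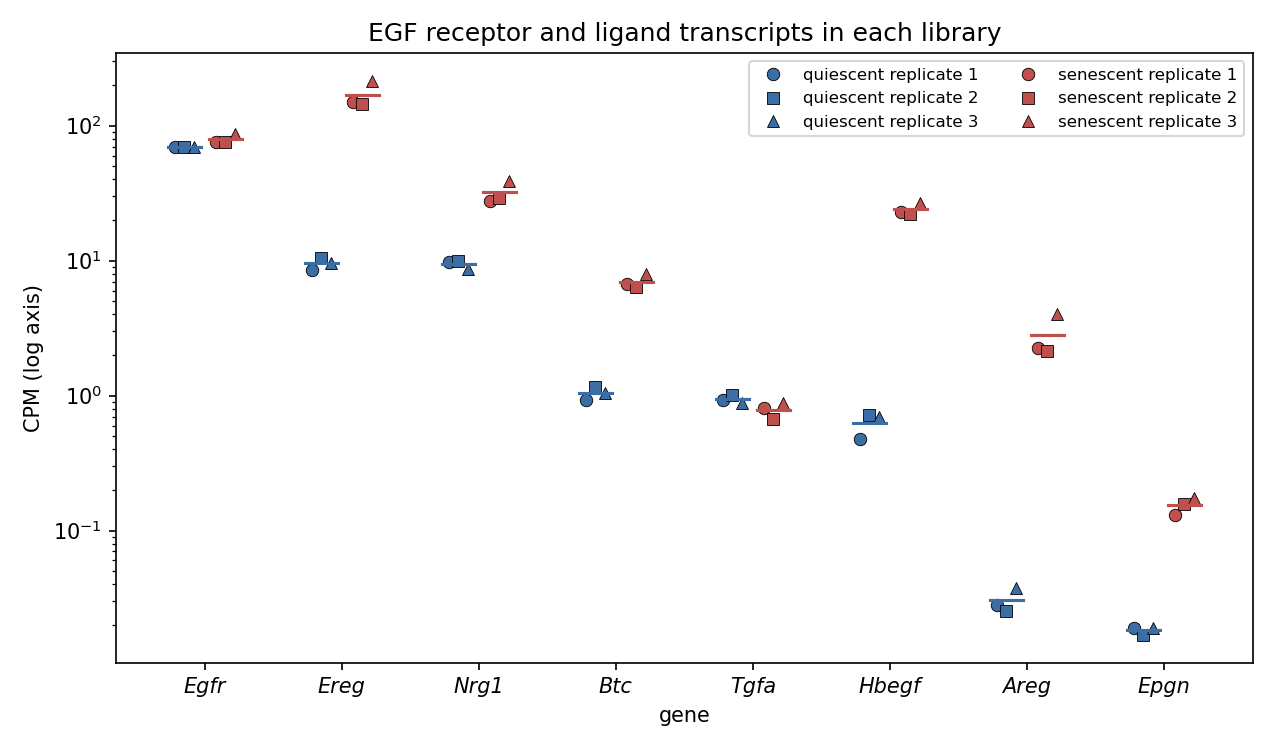
Level of each gene in CPM (log axis) in the 3 quiescent (blue) and 3 senescent (red) libraries, with marker shape for the replicate and a bar for the group mean. Ereg, Hbegf, Areg, Btc, Epgn and Nrg1 lie well above their quiescent values in every senescent library, Egfr lies slightly above at 75.3 to 86.7 against 69.2 to 69.7 CPM, and Tgfa slightly below.

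By the rule that edgeR's adjusted p be under 0.05, 7 of the 8 members were called higher and none lower, with Tgfa not called, beside 36.7% of all tested genes called higher. Without the fit, 7 had every senescent CPM above every quiescent CPM (38.4% of all tested genes did) and Tgfa had every one below (39.9% did). Since the genes were chosen on this contrast, nothing is read from these counts. Under upper quartile factors and under library totals, 6 were called higher, Egfr was not called and Tgfa was called lower. With a minimum count of 30, Epgn was not tested. Against a 2-fold change in place of no change, Egfr was the only one of the 7 that was no longer called. The smallest log2 difference among the called members was 0.19 (Egfr), and the member outside the rule was Tgfa at -0.25.

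All 8 members were highest within the senescent group in the third library, which was the highest of the 3 for 40.0% of all tested genes. Its level over the mean of the other 2 was 1.83 for Areg, 1.47 for Ereg and 1.38 for Nrg1, and between 1.15 and 1.22 for the other 5 genes. Without that library, the log2 difference was 3.95 for Ereg, 6.13 for Areg, 1.59 for Nrg1 and 0.13 for Egfr.

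Levels can be compared between genes only per length, so CPM was divided by the merged exon length in kilobases. In quiescent cells the order was Egfr at 6.13, Ereg at 2.31, Nrg1 at 0.914, Btc at 0.230, Tgfa at 0.144, Hbegf at 0.131, Areg at 0.025 and Epgn at 0.010 CPM per kilobase. Tgfa and Hbegf overlapped in range; the other neighbours in that order did not. In senescent cells Ereg came first at 41.1 ± 9.60, followed by Egfr at 7.01 ± 0.562, Hbegf at 4.96 ± 0.524, Nrg1 at 3.09 ± 0.600, Areg at 2.30 ± 0.867, Btc at 1.55 ± 0.182, Tgfa at 0.121 and Epgn at 0.085 CPM per kilobase (SD, n = 3). Nrg1 and Areg overlapped in range there. With the longest annotated transcript as the length, Hbegf moved above Egfr in senescent cells, at 1.07 times its level in place of 0.708 times.

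The receptor was thus the most abundant transcript of the set per kilobase in quiescent cells, and the summed ligands exceeded it in senescent cells. The 6 ligands other than Nrg1, which does not bind the EGF receptor itself, summed to 0.414, 0.509 and 0.474 of the Egfr level in quiescent libraries and to 6.67, 6.40 and 8.23 times that level in senescent libraries. With Nrg1 included, the 7 ligands summed to 0.569, 0.666 and 0.610 of the Egfr level in quiescent libraries and to 7.07, 6.82 and 8.73 times the Egfr level in senescent libraries. The groups were far apart, with means of 0.615 ± 0.0488 and 7.54 ± 1.04 (SD, n = 3 each). These ratios do not depend on library scaling, since numerator and denominator share a library. Ereg alone was at 0.377 of the Egfr level in quiescent and 5.82 ± 0.869 times in senescent libraries.

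The makeup of the ligand pool also differed. Ereg made up 61.3% ± 1.97 of summed ligand CPM per kilobase in quiescent and 77.1% ± 0.866 in senescent libraries. Nrg1 went from 24.3% ± 2.55 to 5.83% ± 0.281 although its own level was higher. Hbegf went from 3.45% ± 0.544 to 9.47% ± 1.01 and Areg from 0.669% to 4.24%. Tgfa went from 3.84% to 0.231% (SD where given, n = 3 each). For Ereg, Nrg1, Hbegf, Areg and Tgfa, no library of one group had a share within the range of the other. The shares depend on the length used. With the longest transcript, Ereg made up 48.3% in quiescent and 68.8% in senescent libraries, Nrg1 36.6% and 9.94%, and Hbegf 4.56% and 14.1%; the directions between the groups were the same.

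**Figure D2:**
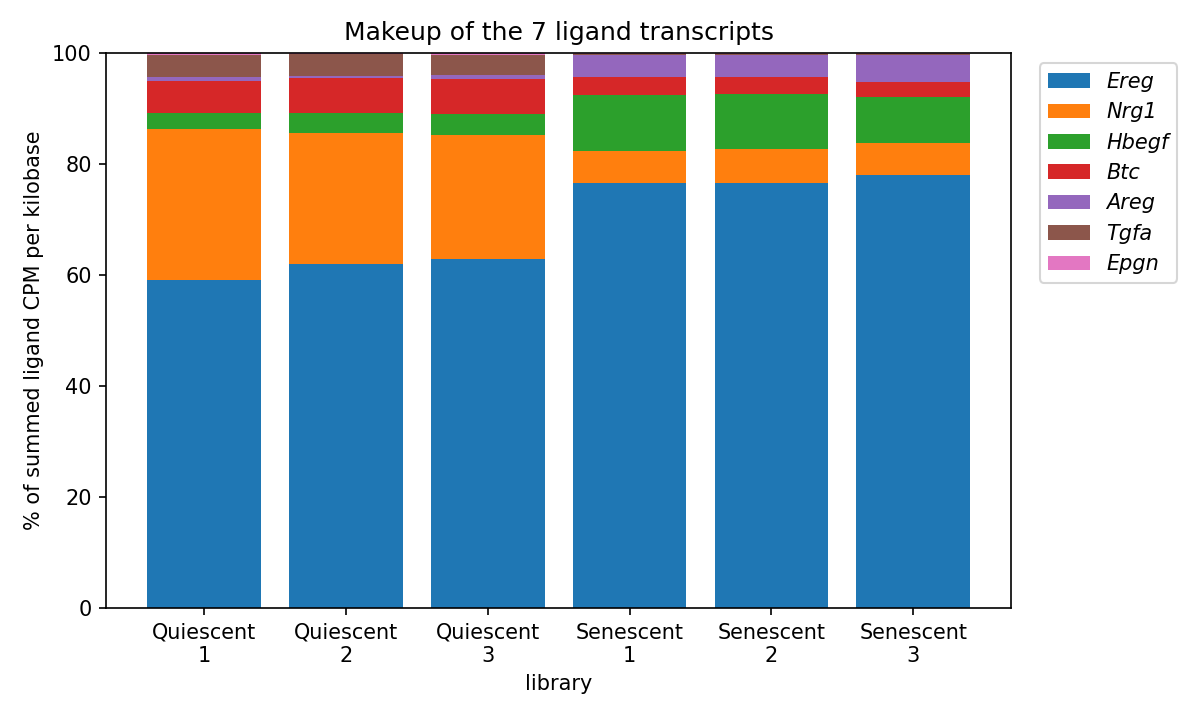
Share of each ligand in the summed ligand CPM per kilobase (%, stacked to 100) in each of the 6 libraries. Ereg is the largest part of every bar, Nrg1 is the next in the quiescent bars at 24.3% on average, and Hbegf is the next in the senescent bars at 9.47%.

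Ereg, Areg, Btc and Epgn lie within 376 kb on chromosome 5 (chr5:91027464-91402994), next to a group of chemokine genes. Within 500 kb of that span lay 13 other rows, of which 7 were tested, 6 were called higher and none lower, with a median log2 difference of 1.46, beside 36.7% called higher and a median of -0.02 over all tested genes. Cxcl1, Cxcl2, Cxcl3 and Cxcl5 encode chemokines that attract neutrophils. Cxcl2 was 7.33 higher on the log2 scale (SE 0.82, edgeR adjusted p = 0.00039), Cxcl3 7.34 (SE 0.65, edgeR adjusted p = 4.5e-05) and Cxcl1 3.59 (SE 0.43, edgeR adjusted p = 0.00057). Each of these was highest in the third senescent library, at 29.5 CPM for Cxcl2 against 12.3 and 9.55 in the other 2. Without that library the log2 differences were 6.68 for Cxcl2, 6.93 for Cxcl3 and 3.08 for Cxcl1, and without quiescent replicate 1 that of Cxcl3 was 7.95. Cxcl5 was 1.07 higher (edgeR adjusted p = 0.017), a call lost with library totals (adjusted p = 0.13) and with no low-count filter (adjusted p = 0.065). Parm1, on the far side of Btc, was 1.46 higher (SE 0.09, edgeR adjusted p = 4.7e-08) and Rassf6 0.96 higher (edgeR adjusted p = 0.0053). Mthfd2l, which lies between the chemokines and Epgn, was not called, at 0.17 (edgeR adjusted p = 0.25). Chemokine genes that are close copies may share reads, and the sources used here do not say how such reads were counted.

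**Figure D3:**
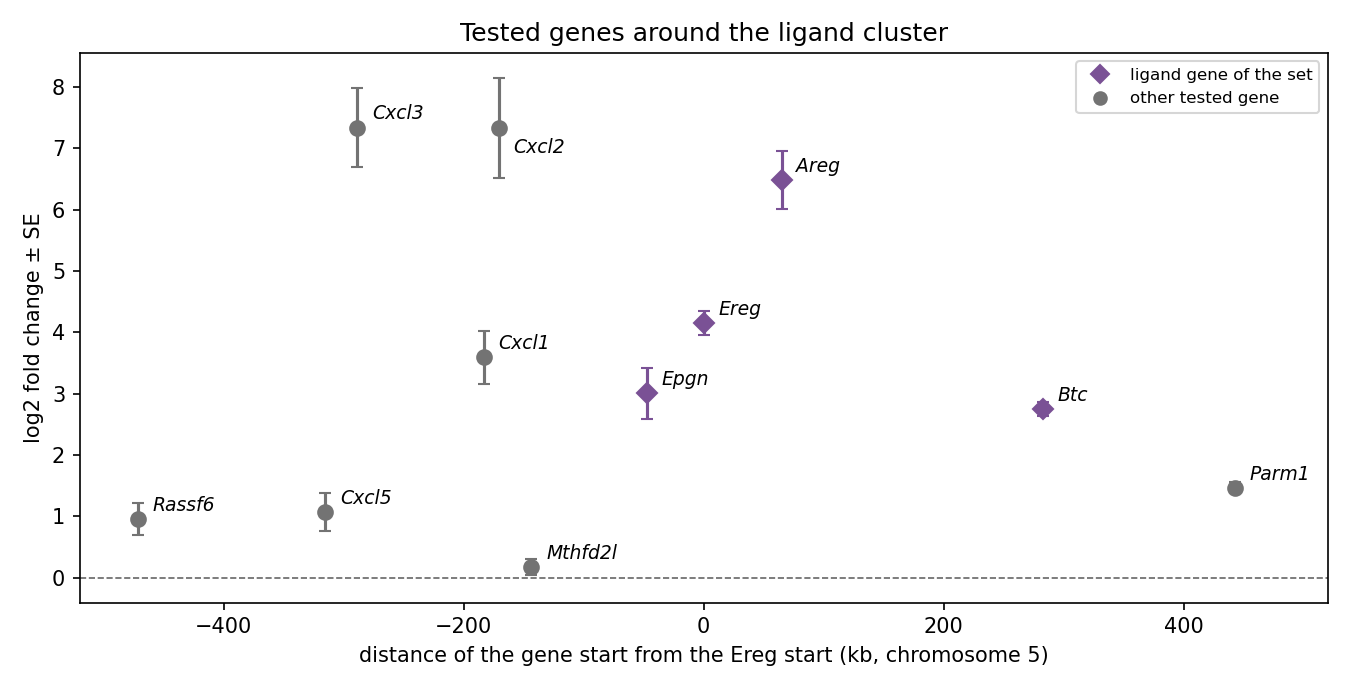
Log2 difference (senescent minus quiescent, bars ± SE) of each tested gene around the ligand cluster, by the distance in kilobases of its lowest coordinate from that of Ereg on chromosome 5. Purple diamonds are the 4 ligand genes and grey circles the other 7 tested genes; Mthfd2l, at 0.17, is the one close to 0.

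The other receptors of the family did not share the ligands' difference. Erbb2, the partner receptor that binds no ligand of its own, fell from 7.74 ± 0.244 to 6.32 ± 0.655 CPM (SD, n = 3 each), a log2 difference of -0.29 (SE 0.08, edgeR adjusted p = 0.0052). Erbb3, the kinase-impaired neuregulin receptor, had 21, 20 and 16 counts in quiescent and 16, 9 and 14 counts in senescent libraries, a difference that was not called (edgeR adjusted p = 0.25). Erbb4 had 1 to 6 counts per library and was not tested.

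Among the ligands outside the set, none was called higher. Egf, the founding ligand, fell from 22, 39 and 19 counts to 10, 10 and 8 counts (log2 difference -1.32, SE 0.33, edgeR adjusted p = 0.0034). Nrg4 was also called lower, at -0.80 (edgeR adjusted p = 0.022). That call was lost with DESeq2 (adjusted p = 0.074) and when quiescent replicate 2 or 3 or senescent replicate 1 or 2 was left out (adjusted p = 0.064 to 0.082). Nrg2 was not called at -0.52 (edgeR adjusted p = 0.16), and was called lower with library totals (adjusted p = 0.038). Nrg3 had at most 1 count in any library and was not tested.

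Of 11 genes for ligand release and its control, 7 rose and 4 fell, beside 36.7% and 37.8% of all tested genes. The median log2 difference was 0.68 against -0.02 for all tested genes. The proteases best known for cutting EGF receptor ligands were among those that fell. Adam17, the main sheddase of Areg, Ereg, Hbegf and Tgfa, went from 21.8, 22.9 and 23.2 to 14.7, 15.7 and 15.3 CPM (log2 difference -0.57, SE 0.05, edgeR adjusted p = 8e-07). Adam10, which sheds Btc and Egf, went from 44.2 to 32.1 CPM (-0.46, edgeR adjusted p = 3.2e-06), and Adam15 had a log2 difference of -0.76. Adam19 went from 31.6 ± 0.304 to 92.1 ± 3.75 CPM (log2 difference 1.55, SE 0.05, edgeR adjusted p = 2.5e-10), and Adam12, linked to Hbegf shedding, from 11.6 to 27.8 CPM. Rhbdf2, which encodes iRhom2, a carrier that brings Adam17 to the cell surface, rose by 1.28 (SE 0.12, edgeR adjusted p = 4.7e-06). Its relative Rhbdf1 fell by 0.24. Timp3, an inhibitor of some of these proteases, rose from 304 to 675 CPM. With library totals the list had 6 higher and 4 lower calls.

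The receptor adaptors and the RAS to ERK cascade were mixed in direction. Of 13 adaptors, 7 rose and 5 fell (median log2 difference 0.19), beside 36.7% and 37.8% of all tested genes. The split was 6 and 6 under upper quartile factors and 5 and 6 under library totals. Vav3, a guanine nucleotide exchange factor, was higher by 1.72. Ptpn11 (SHP2), a phosphatase needed for full RAS activation, and Sos2, a RAS exchange factor, were each higher by 0.54. Gab1, a docking protein for Ptpn11 and PI3K, fell from 9.35 to 2.78 CPM (log2 difference -1.76, SE 0.09, edgeR adjusted p = 9.8e-09). Vav2 had -0.45 and Nck1 -0.42.

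Of 15 cascade genes, 8 rose and 5 fell (median 0.15), beside 36.7% and 37.8% of all tested genes (median -0.02). The split was 5 and 6 under upper quartile factors. Under library totals it was 1 and 7, with a median of -0.15. All tested genes then had 2952 called higher, 7435 called lower and a median of -0.32. Map2k1 (MEK1), the kinase that activates ERK, went from 19.5 ± 0.382 to 62.3 ± 2.11 CPM (log2 difference 1.67, SE 0.05, edgeR adjusted p = 1.4e-10). Ksr1, a scaffold that joins RAF, MEK and ERK, went from 17.2 to 6.05 CPM (-1.51). Mapk3 (ERK1) was called lower, at -0.51. Hras, at 0.48, lost its call with library totals (adjusted p = 0.054), and Rras, a RAS relative, had -0.42.

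In the PI3K and AKT arm, 6 of 13 genes rose and 3 fell, beside 36.7% and 37.8% of all tested genes. The list median was 0.03, against -0.02 for all tested genes. With upper quartile factors there were 4 higher and 6 lower calls, and with library totals 1 and 8. The list median with library totals was -0.27, against -0.32 for all tested genes. Pik3cb, a catalytic subunit, was higher by 0.76 and Pik3r3, a regulatory subunit, lower with -0.75. Pdpk1 and Rictor, which take part in AKT activation, were each higher by 0.44, calls that library totals ended (adjusted p = 0.12 and 0.23). The calls of Pik3cd (-0.28, edgeR adjusted p = 0.026) and Pik3r1 (-0.13, edgeR adjusted p = 0.018) were lost with DESeq2 (adjusted p = 0.12 and 0.070) and without some single libraries, which were quiescent replicates 1 and 3 and senescent replicate 1 for Pik3cd, and quiescent replicates 2 and 3 for Pik3r1.

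Of 16 tested genes for receptor endocytosis and breakdown, 12 were called higher and 2 lower, with a median of 0.55, beside 36.7% of all tested genes called higher. With library totals the split was 9 and 4. The summed level of the list did not rise, at 572 to 583 CPM in quiescent and 552 to 582 CPM in senescent libraries. Sh3kbp1 (CIN85), which links the ubiquitin ligase Cbl to endocytosis, rose from 19.2 to 60.1 CPM (log2 difference 1.65, SE 0.09, edgeR adjusted p = 1e-07). Stam2 and Hgs, parts of the complex that sorts ubiquitinated receptors to lysosomes, rose by 1.34 and 0.97, and Cbl by 0.49. The related ubiquitin ligases Nedd4l and Nedd4 went apart, at 1.15 and -0.95. Epn2, an endocytic adaptor, was called lower at -0.16 (edgeR adjusted p = 0.017), a call lost with DESeq2 (adjusted p = 0.059) and on leaving out quiescent replicate 2 or 3 or senescent replicate 1.

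Of 12 negative regulators of the receptor, 9 rose and 2 fell (median 0.41), beside 36.7% and 37.8% of all tested genes. With library totals 6 rose and 3 fell. Errfi1 (MIG6), which binds and blocks the receptor's kinase, went from 15.5, 17.8 and 20.1 CPM to 143, 142 and 163 CPM. No values overlapped, and the log2 difference of 3.07 (SE 0.10, edgeR adjusted p = 3.6e-09) was the largest on this list. Lrig1, which promotes loss of the receptor, rose from 8.95 to 33.2 CPM (1.89, edgeR adjusted p = 5.6e-09) and the receptor-type phosphatase Ptprk from 15.7 to 50.8 CPM (1.69). The Lrig1 relatives Lrig3 and Lrig2 fell, with -0.85 and -0.44.

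Of 20 feedback and early target genes of ERK, 16 rose and 4 fell, beside 36.7% and 37.8% of all tested genes. The median of 1.20 was the highest of the lists downstream of the receptor. With library totals the split was 14 and 4. Dusp5, a nuclear ERK phosphatase, went from 0.547 to 15.7 CPM (log2 difference 4.84, SE 0.24, edgeR adjusted p = 8.6e-07). Fosl1, an AP-1 subunit, went from 0.399 to 5.96 CPM (3.89, edgeR adjusted p = 1.5e-06) and Ier3, an early response gene, from 5.39 to 64.6 CPM (edgeR adjusted p = 2e-06). Dusp6, a cytoplasmic ERK phosphatase, was higher by 0.53 only. The genes that fell were the ETS factors Etv1 (-2.15) and Etv5 (-0.37), the RAS pathway inhibitor Spry1 (-1.84) and Fos (-0.36). Within the senescent group, 16 of the 20 were highest in the third library, beside 40.0% of all tested genes. Their median log2 excess there was 0.21 over the mean of the other 2. The other pathway lists had 0.09 (negative regulators, 8 of 12 highest there), 0.07 (trafficking, 9 of 16) and 0.01 (release, 4 of 11). Adaptors had -0.03, the PI3K arm -0.04 and the cascade -0.06. The same excess was 0.27 over the 8 members, 0.31 over the tested macrophage markers (4 of 5 highest there) and 0.40 over the tested endothelial markers (4 of 4). The other marker lists were lower: 0.18 for epithelial (1 gene tested), 0.07 for mast cell and basophil and -0.04 for lymphocyte markers. Glial markers had -0.13, fibroblast markers -0.18 and mesothelial markers -0.37.

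Over the 7 lists of release, adaptor, cascade, PI3K, trafficking, inhibitor and target genes, 65 of 100 tested genes were called higher and 25 lower, beside 36.7% and 37.8% of all tested genes. Of the called genes in these lists, 72.2% were higher, and 53.8% with library totals (42 higher, 36 lower). Over all tested genes the same shares were 49.2% and 28.4%. Against a 2-fold change, 22 were higher and 4 lower, 10 of the 22 being ERK targets. The lists were chosen with earlier results of these data known, and the counts describe them without a test.

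**Figure D4:**
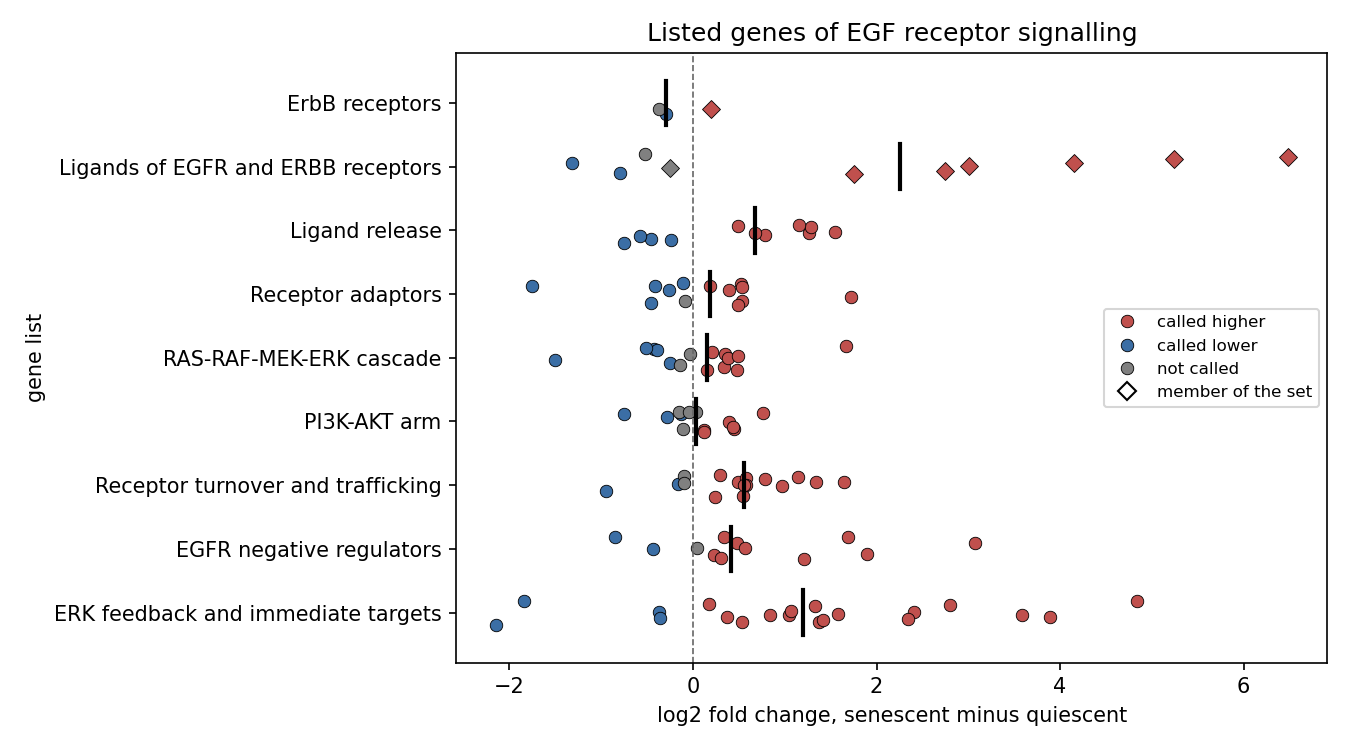
Log2 difference (senescent minus quiescent) of each tested gene by list, red for called higher, blue for called lower and grey for not called, with the list median as a black bar. Diamonds are genes of the set of 8; the ERK target list, with a median of 1.20, lies farthest to the right of the lists below the ligands.

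Markers of other cells moved with the ligands in part. Of 10 macrophage markers, 5 were tested and all 5 rose, their summed level going from 3.99 to 4.25 CPM in quiescent libraries to 10.9 to 14.4 CPM in senescent libraries, with Cd14 the most abundant (2.30 to 6.88 CPM). Ptprc, the pan-leukocyte marker, had 3 counts over the quiescent and 18 over the senescent libraries. Of 10 mast cell and basophil markers, 4 were tested; Mcpt8 rose from 0.231 to 23.3 CPM, while Kit and Cpa3 fell and Fcer1a was at 0 in every library. The summed level of that list went from 2.33 to 2.37 CPM in quiescent to 21.2 to 27.9 CPM in senescent libraries. Most of the senescent sum was Mcpt8. Of 12 epithelial markers, 10 had under 10 counts in every library, and the summed level was 0.594 to 0.767 CPM in quiescent and 0.257 to 0.428 CPM in senescent libraries. Of 10 lymphocyte markers, 2 were tested: Gata3 was called lower (log2 difference -1.29, edgeR adjusted p = 2.7e-05) and Foxp3 was not called. Cd3e and Ncr1 were among those at 0. The summed level was 1.53 to 1.79 CPM in quiescent and 0.872 to 1.07 CPM in senescent libraries. Of 8 glial markers, 4 were tested; Ncam1 and S100b rose, and the summed level was 7.91 to 8.78 CPM in quiescent and 23.3 to 30.9 CPM in senescent libraries, most of it Ncam1. Of 7 mesothelial markers tested, Krt19 rose by 2.96 on the log2 scale and 2 fell, with summed levels of 7.88 to 9.05 and 10.6 to 13.1 CPM. Krt19 alone went from a mean of 0.847 to 6.59 CPM. Of 8 endothelial markers, 4 were tested; Cdh5 rose by 2.32 and Tek fell by 2.67, with summed levels of 5.16 to 5.68 and 3.43 to 5.01 CPM. The part of these cell types in the ligand values was not tested.

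The genes whose profiles over the 6 libraries lay closest to each member, by Euclidean distance of centred log2 CPM among 10188 genes, are given as a description. Closest to Ereg were Inhba, which encodes the activin A subunit, at a distance of 0.232, the cytokine gene Clcf1 at 0.234 and Chst11 at 0.259. Closest to Hbegf was Ttc9 (0.231), to Areg Akr1c18 (0.531), to Btc Hmga2 (0.159), to Nrg1 Foxf1 (0.174), to Epgn Tcim (0.174), to Egfr Fnip2 (0.056) and to Tgfa Cwf19l1 (0.109). Areg had no gene as close as the other members did. With 2 groups of libraries, closeness mostly reflects a like difference between the groups. The log2 CPM used here carried a prior count of 2, which shrinks differences of genes with few counts. For the 2 members with the fewest quiescent counts the fitted log2 differences were less alike. They were 6.48 for Areg against 5.45 for Akr1c18, and 3.00 for Epgn against 2.18 for Tcim. When values were also divided by their SD, only 2 of the 24 pairs were the same, Hbegf with Nr4a2 and Btc with Hmga2.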

How the data were processed

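Per the labels' protocols, total RNA depleted of ribosomal RNA was made into directional libraries and sequenced as paired reads of 100 bp. Values are whole-number read counts for each gene symbol, used as the authors deposited them. The submitters' processing notes name mm10, edgeR 3.32.1 and limma 3.46.0 without a role, with the aligner, counter and strand use not given in the sources used here. Antisense or overlapping genes of Egfr, Ereg, Tgfa and Nrg1 are annotated, so their reads may be mixed. The labels list replicates as samples without naming cultures or animals; a p-value here therefore reflects only the spread among these libraries, which may be technical.

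Genes were filtered with filterByExpr (minimum count 10), scaled with TMM and tested with edgeR 4.0.16 (quasi-likelihood, R 4.3.3), with Benjamini-Hochberg adjustment over 14065 genes and a threshold of 0.05. The test was checked on simulated data. All p-values called adjusted come from this fit unless another tool or setting is named. Alternatives were DESeq2 1.42.0, limma-voom 3.58.1, other scalings, filters and a prior count of 2, a 2-fold threshold, a fit blocked on replicate number, and fits that each omit 1 library. The members and gene lists were chosen with earlier results of these data known. Named pathway genes are up to 3 called genes in each direction per list at a mean log2 CPM of at least 0, some of which are not reported here; other pathway, neighbour and marker genes were named after their values were seen. Profile neighbours are the 3 closest genes per member, of which the closest are printed.

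Positions and lengths come from GENCODE M21 (GRCm38, the assembly mm10 names), which matched 24366 of 25239 symbols. Promoters come from RefSeq (GRCm38.p6), matched by symbol for 5 members; Ereg and Nrg1 are named only, and Hbegf sequence is not printed. Count ratios have 95% intervals from the exact binomial (Clopper-Pearson) method. Reads carry no molecular identifiers, so these cover counting error only.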

Additional observations from a re-analysis of the deposited data

How the results depend on the processing

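Of the 7 members called higher, Ereg, Areg, Hbegf, Btc and Nrg1 kept that call under every alternative. The members were chosen on this contrast, so nothing is read from these calls. Library totals in place of TMM gave log2 differences of -0.10 for Egfr (a reversed direction), 3.86 for Ereg, 4.95 for Hbegf, -0.55 for Tgfa, 2.45 for Btc, 2.72 for Epgn and 1.46 for Nrg1. They also gave 2952 higher calls over all genes, 42 over the pathway lists, 1 in the ERK cascade and 1 in the PI3K arm, with 8 lower calls in the PI3K arm and 4 in trafficking. Upper quartile factors gave 0.0989 for Egfr, 5 higher calls in the cascade, 6 lower calls in the PI3K arm and 4 in trafficking. A prior count of 2 gave 5.84 for Areg and 2.21 for Epgn, and limma-voom gave 2.80 for Epgn. DESeq2 gave 1 lower call in the PI3K arm and 1 in trafficking.

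Against a 2-fold change, 1154 genes were higher and 1309 lower, with 22 and 4 over the pathway lists. In the same order the counts were 3 and 0 for ligand release, 1 and 1 for adaptors, 1 and 1 for the cascade, 0 and 0 for the PI3K arm, 3 and 0 for trafficking, 4 and 0 for negative regulators and 10 and 2 for ERK targets, and 0 other ErbB receptors were lower. The longest transcript as length gave Hbegf 1.07 times the Egfr level, and division by SD left 2 shared neighbours. The cause of these moves was not tested.

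Leaving out 1 library at a time gave 1 to 4 lower calls in the PI3K arm (1 without quiescent replicate 3) and 1 to 2 in trafficking (1 without quiescent replicate 2 or 3 or senescent replicate 1). Member log2 differences ranged from 0.13 to 0.23 for Egfr, 3.95 to 4.25 for Ereg, 6.13 to 6.65 for Areg, 5.08 to 5.34 for Hbegf, 2.65 to 2.83 for Btc, 2.90 to 3.12 for Epgn, 1.59 to 1.86 for Nrg1 and -0.33 to -0.15 for Tgfa. Same-numbered libraries of the groups had correlations of deviations of 0.051, -0.010 and 0.058. Differently numbered libraries had -0.101 to 0.056. With 3 libraries per group, these values cannot show whether a number marks a shared culture or animal. With the replicate block, 5124 genes were higher and 5281 lower, with 65 and 25 in the pathway lists, and Ereg was at 4.13. Depth limits Epgn, Erbb4, Nrg3 and quiescent Areg, which had at most 18 counts in the libraries named.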

Other observations

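Of 15 pairs of closely related genes in the pathway lists, chosen after their values were seen and so no sign of a general pattern, 7 had 1 partner called higher and the other called lower by edgeR at an adjusted p under 0.05. Among them were Rhbdf1 and Rhbdf2, Sos1 and Sos2, Gab1 and Gab2, Vav2 and Vav3, Epn1 and Epn2, and Nedd4 and Nedd4l. The widest were Gab1 at -1.76 (SE 0.09) against Gab2 at 0.52 (SE 0.05), and Vav2 at -0.45 against Vav3 at 1.72 (SE 0.15). With library totals 5 of the 15 pairs had opposite calls, and 6 did with DESeq2. Leaving out 1 of quiescent replicates 2 and 3 or senescent replicate 1 also gave 6.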
